A study of Homo sapiens with 12 samples.

Results

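The 10 genes described here encode chaperones and folding enzymes of the endoplasmic reticulum (ER), together with XBP1 and genes that the XBP1 protein is known to switch on: HSPA5, HSP90B1, CALR, PDIA4, CRELD2, DNAJB9, DNAJC3, SDF2L1, HERPUD1 and XBP1. They were listed by name for this known role, at a time when earlier results of these libraries were known. All 10 were found among the 26475 gene symbols measured, and all 10 were among the 14582 genes that passed the filter on low counts and were tested.

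RNA was sequenced from MIAPaCa2 cells, an established line of pancreatic ductal adenocarcinoma, in 12 libraries of 4 groups with 3 libraries each. The groups were parental cells given vehicle (labelled as untreated), parental cells given oxamate, oxamate-resistant cells given vehicle and oxamate-resistant cells given oxamate. Oxamate competes with pyruvate for lactate dehydrogenase A (LDHA), the enzyme that turns pyruvate into lactate at the end of glycolysis, and the oxamate-resistant cells were the survivors of MIAPaCa2 cells kept in 10 mM oxamate for 4 weeks, a population that was not cloned. All groups were grown in the same DMEM with serum, and nothing in the sources used here says that the 3 libraries of a group came from separate cultures, so the p-values measure the spread between these libraries, which may be technical.

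Secreted and membrane proteins fold in the ER. When more unfolded protein is present than the chaperones can hold, the sensors IRE1 (encoded by ERN1), PERK (EIF2AK3) and ATF6 start the unfolded protein response. IRE1 splices XBP1 mRNA into the form that encodes an active transcription factor, and XBP1 and cleaved ATF6 then switch on chaperone genes through short promoter elements, most of all the ER stress element (ERSE). PERK acts through translation and the factor ATF4, which switches on genes of amino acid supply and DDIT3. Acinar cells of the pancreas, which secrete large amounts of digestive enzymes, are known for high levels of this machinery.

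The ERSE was looked for because it is an element through which chaperone genes of the ER are known to respond together. It was read here as CCAAT and CCACG with 9 bases between them, and its relative ERSE-II as ATTGG and CCACG with 1 base between them, on both strands of the RefSeq promoter windows of build GRCh38.p14, which run from 250 bases before to 50 bases after each transcription start. An ERSE was present in 27 of 35116 windows (0.0769%) and in those of 5 of the 10 genes, and an ERSE-II in 19 windows (0.0541%) and in those of 2 of the 10. The elements are printed with 5 flanking bases on each side, 5′ to 3′ on the strand that carries them, and the capitals mark the letters searched for.
HSPA5: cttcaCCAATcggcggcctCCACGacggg
HSP90B1, distal: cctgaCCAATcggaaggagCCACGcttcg
HSP90B1, proximal: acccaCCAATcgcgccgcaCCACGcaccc
CALR: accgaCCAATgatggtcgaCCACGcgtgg
CRELD2: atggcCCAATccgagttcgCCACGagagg
XBP1: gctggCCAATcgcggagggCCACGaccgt
HERPUD1, ERSE-II: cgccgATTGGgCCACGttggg
SDF2L1, ERSE-II: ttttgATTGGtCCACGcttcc

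The printed stretch of HSPA5 lies at chr9:125241386-125241414 on the minus strand, with the element from 66 to 48 bases before the start. The HSP90B1 stretches lie at chr12:103930211-103930239 on the plus strand and chr12:103930316-103930344 on the minus strand, and HSP90B1 was the only one of the 10 genes with 2 ERSE copies in its window. The stretch of CALR lies at chr19:12938379-12938407 on the minus strand, that of CRELD2 at chr22:49918549-49918577 on the minus strand and that of XBP1 at chr22:28800598-28800626 on the minus strand. The ERSE-II stretch of HERPUD1 lies at chr16:56932020-56932040 on the plus strand and that of SDF2L1 at chr22:21642109-21642129 on the minus strand. All of these positions are upstream of the RefSeq transcription start of their window. In the GENCODE release 29 annotation of the same build, the HSP90B1 gene begins further upstream, at chr12:103930107, and CRELD2 at chr22:49918167, so that their stretches lie inside these annotated genes. The proximal HSP90B1 stretch overlaps an exon in 2 of 3 basic transcripts of that annotation, and the other printed stretches overlap 0 basic transcripts of their gene. Neither form was found in the windows of DNAJB9, DNAJC3 and PDIA4. CCACG alone was present in the windows of all 10 genes and in 38.1% of all windows. The XBP1 site TGACGTG was in none of the 10 and in 1.97% of windows, and the element TGATGNAA, which C/EBP-ATF pairs such as those of ATF4 bind, was in that of HERPUD1 and in 3.62% of windows.

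**Figure D1:**
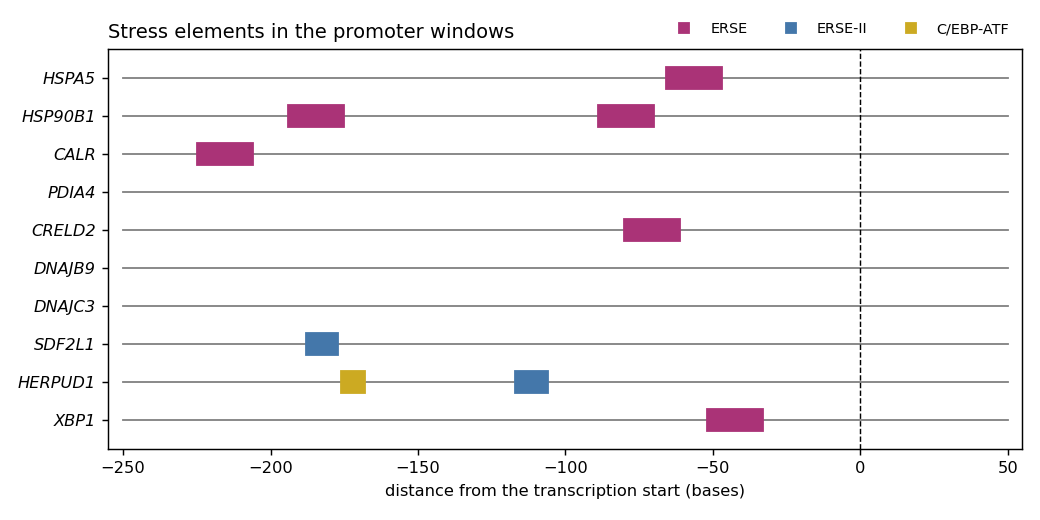
Position of each element in the promoter windows of the 10 genes, as the distance in bases from the RefSeq transcription start (dashed line); each row is a gene and each box an element. The ERSE boxes lie between 225 and 34 bases upstream, and the rows of PDIA4, DNAJB9 and DNAJC3 hold none of the 3 elements drawn.

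The libraries held 46698729 to 114222169 expected counts in all, with the highest total in vehicle-treated parental cells. A gene's level is given below as CPM, counts scaled to a common library total with TMM factors, and the least abundant of the 10 genes had 605 counts or more in every library, so that 3 counts, the floor used here (0.0283 to 0.0581 CPM), was far below all levels reported. In bulk RNA, a smaller number of cells that use a gene cannot be told apart from less of its RNA per cell. The keratins KRT8, KRT18 and KRT19 marked the cells as carcinoma, EPCAM and CDH1 reached at most 3 counts and 2 counts in any library, and of the leukocyte and fibroblast markers PTPRC, CD3E, DCN and LUM reached at most 3 counts whereas CD68 and COL1A2 were present. The 3 leukocyte markers had sums of 156 to 164 CPM in vehicle-treated and 211 to 220.2 CPM in oxamate-treated parental cells, and of 59.4 to 63.0 and 56.4 to 58.9 CPM in the oxamate-resistant groups. CD68, which made up nearly all of these sums, moved in the direction of the chaperones: it stood at 0.379 of its parental level in oxamate-resistant cells after vehicle and at 0.268 after oxamate, rose 1.34-fold with oxamate in parental cells (adjusted p = 5.94e-09, edgeR), and differed between the responses by -0.50 on the log2 scale (adjusted p = 2.37e-07). VIM, which marks mesenchymal cells, stood at 0.665 and 0.607 of its parental level. The 4 fibroblast markers had sums of 694 to 712 CPM in vehicle-treated and 932 to 951 CPM in oxamate-treated parental cells, and of 710.2 to 743 and 784 to 802 CPM in the oxamate-resistant groups. The 6 epithelial markers KRT8, KRT18, KRT19, KRT7, EPCAM and CDH1 had sums of 3279 to 3485 CPM in vehicle-treated parental cells. In vehicle-treated oxamate-resistant cells the sums were 1760 to 1792 CPM. After vehicle, KRT8, KRT18 and KRT19 stood at 0.464, 0.618 and 0.502 of their parental level in oxamate-resistant cells. KRT7, at 0.161 to 0.873 CPM over the libraries, went the other way. It was 2.59-fold higher in oxamate-resistant cells after vehicle and 1.68-fold higher after oxamate. The part of these markers in the levels of the 10 genes was not tested. The nuclear-retained RNAs MALAT1, NEAT1, KCNQ1OT1 and MIAT had sums of 321 to 357 CPM in vehicle-treated parental cells, 544 to 1187 CPM in oxamate-treated parental cells, 534 to 1112 CPM in vehicle-treated oxamate-resistant cells and 1080 to 1407 CPM in oxamate-treated oxamate-resistant cells. MALAT1 alone had 289, 281 and 596 CPM in the oxamate-treated parental libraries and 273, 244 and 597 CPM in the vehicle-treated oxamate-resistant ones, so that the third library of both groups was the highest. The counts of called genes below were also taken without these 2 libraries, called below the libraries left out for MALAT1. Each was the highest of its own group only. All oxamate-treated oxamate-resistant libraries were kept, with 577, 609 and 742 CPM of MALAT1. Their sums of 1080 to 1407 CPM, given above, include the highest of all groups. The check therefore does not remove the highest levels of nuclear-retained RNA.

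The oxamate-resistant cells were compared with the parental cells to ask how the cells that survived LDHA inhibition differ, once after vehicle and once after oxamate. All 10 mRNAs were lower in oxamate-resistant than in parental cells in both settings. The master chaperone HSPA5 stood at 0.506 of its parental level after vehicle and at 0.397 after oxamate, DNAJB9 at 0.447 and 0.260, and SDF2L1 at 0.393 and 0.326. The summed level of the 10 mRNAs ran from 6063 to 6142 CPM in vehicle-treated parental cells and from 3769 to 3810 CPM in vehicle-treated oxamate-resistant cells. After oxamate it ran from 6539 to 6697 CPM in parental cells and from 3520 to 3545 CPM in oxamate-resistant cells, and HSPA5, HSP90B1 and CALR together made up between 83.3% and 85.6% of the sum in each group.

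Of the 10 genes, 10 passed an adjusted p under 0.05 in the downward direction after vehicle, where 37.3% of all genes tested did so, and 10 after oxamate, where 39.7% did. The threshold of the study was an unadjusted p under 0.05 and a change over 1.5-fold. The study applied it to DESeq2 results, and here it was applied to the edgeR fit, so these are not the study's own calls. At this threshold, 5 of the 10 were downregulated after vehicle (HSPA5, DNAJB9, HERPUD1, SDF2L1 and CALR) against 6.14% of all genes. After oxamate, 7 of the 10 were, with PDIA4 and HSP90B1 added, against 11.4% of all genes. The median log2 fold change of the 10 genes was -0.59 after vehicle and -0.74 after oxamate, where the medians of all genes tested were 0.03 and 0.01. The libraries of the compared groups did not overlap for any of the 10 genes in either setting. Ranges lay apart in the downward direction for 37.9% of all genes after vehicle and for 40.3% after oxamate. These directions depended on the scaling for a pair of genes: with library size alone, which raised the median of all genes by 0.22 after vehicle and by 0.32 after oxamate, DNAJC3 and XBP1 were higher in oxamate-resistant cells after oxamate (log2 fold changes of 0.21 and 0.20, with that of the median gene at 0.34). The other 8 genes stayed lower under every scaling tried. Without both libraries left out for MALAT1, 10 of the 10 genes were again called lower in each setting. Their median log2 fold change was then -0.58 under vehicle and -0.75 under oxamate.

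**Figure D2:**
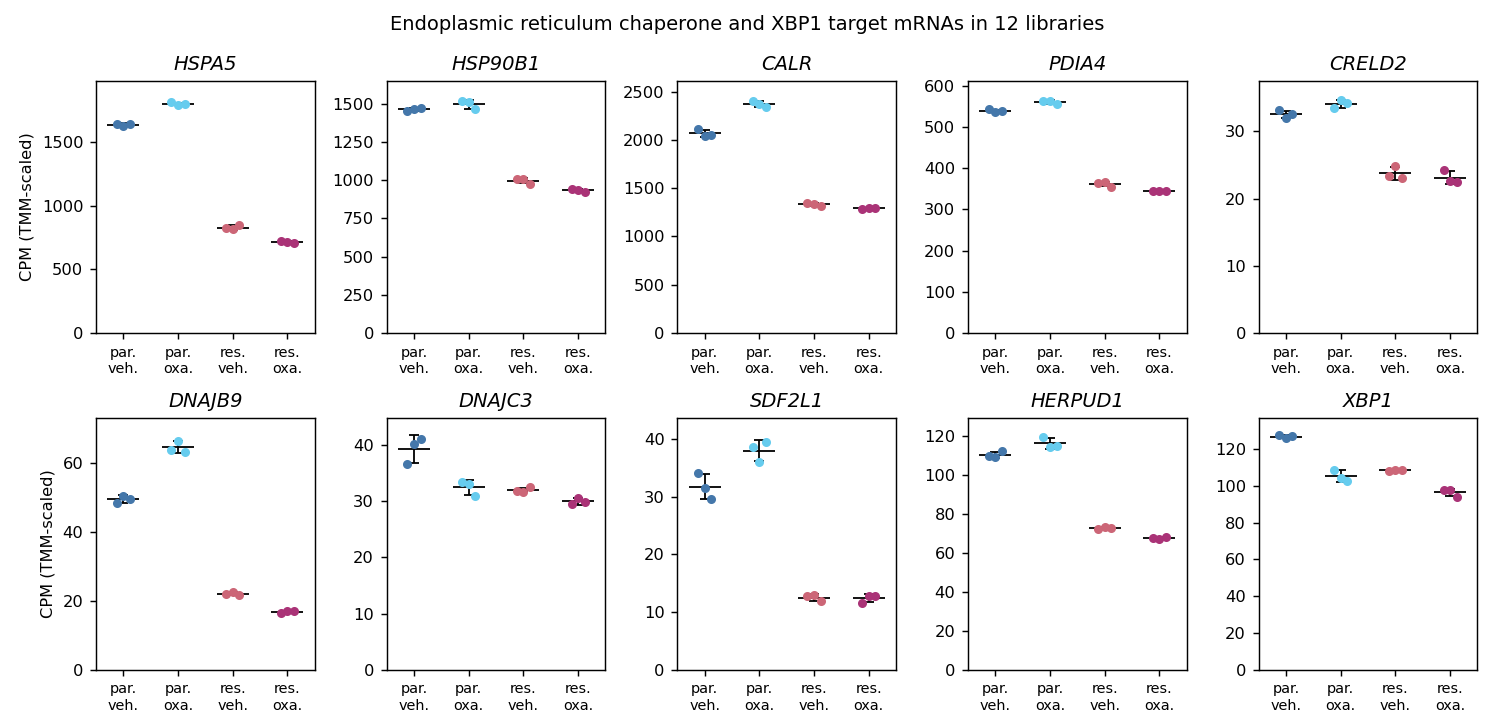
TMM-scaled CPM of the 10 mRNAs in the 12 libraries, 1 panel per gene with an axis from 0; points are libraries, the wide line is the group mean and the bars are the SD of 3 libraries (par., parental; res., oxamate-resistant; veh., vehicle; oxa., oxamate). Under this scaling, HSPA5 and DNAJB9 rank oxamate-resistant with oxamate, oxamate-resistant with vehicle, parental with vehicle and parental with oxamate from low to high with no overlap, and XBP1 and DNAJC3 have their highest group in vehicle-treated parental cells.

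Among the chaperones, HSPA5 (BiP), the Hsp70 of the ER lumen that binds unfolded chains and holds the stress sensors inactive, had 1647, 1625 and 1642 CPM in the 3 vehicle-treated parental libraries and 822, 816 and 848 CPM in the vehicle-treated oxamate-resistant ones. After oxamate, HSPA5 had 1814, 1797 and 1797 CPM in parental cells and 721, 716 and 712 CPM in oxamate-resistant cells. The 4 groups of HSPA5 did not overlap anywhere in this order. Its log2 fold change was -0.98 ± 0.02 (SE, n = 3 against 3; edgeR quasi-likelihood adjusted p = 2.89e-15) after vehicle and -1.33 ± 0.02 (adjusted p = 6.29e-17) after oxamate. By p, HSPA5 ranked 41st of the 14582 genes in the first comparison and 21st in the second. Without both libraries left out for MALAT1, the log2 fold changes of HSPA5 were -1.001 and -1.34.

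CALR, the calcium-binding chaperone of newly made glycoproteins, was the most abundant of the 10 mRNAs, also per kilobase of exon (1087 CPM per kb in vehicle-treated parental cells, against 511 for HSP90B1 and 419 for HSPA5). Its level was 2112, 2044 and 2051 CPM in vehicle-treated parental cells and 1347, 1337 and 1319 CPM in vehicle-treated oxamate-resistant cells. After oxamate it was 2405, 2373 and 2337 CPM in parental cells and 1286, 1295 and 1299 CPM in oxamate-resistant cells. All oxamate-resistant libraries of CALR thus lay below all parental ones, with log2 fold changes of -0.63 ± 0.02 after vehicle (adjusted p = 6.44e-13, edgeR) and -0.87 ± 0.02 after oxamate (adjusted p = 7.05e-15). HSP90B1 (GRP94), the Hsp90 of the ER and a folding partner of integrins and Toll-like receptors, had 1464 ± 11.3 CPM (SD, n = 3) in vehicle-treated parental cells and 998 ± 18.9 CPM in vehicle-treated oxamate-resistant cells, a log2 difference of -0.55. After oxamate the levels of HSP90B1 were 1497 ± 28.7 and 933 ± 12.3 CPM, a log2 difference of -0.68.

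PDIA4 and CRELD2, which make and rearrange disulfide bonds, moved less than HSPA5. PDIA4 had 539 ± 3.36 CPM (SD, n = 3) in vehicle-treated parental cells, 561 ± 4.93 after oxamate, 362 ± 5.83 in vehicle-treated oxamate-resistant cells and 345 ± 0.227 after oxamate, so that its log2 differences between the lines were -0.58 and -0.70. CRELD2 ran from 32.0 to 33.1 CPM in vehicle-treated parental libraries and from 23.1 to 24.9 CPM in vehicle-treated oxamate-resistant ones, a log2 difference of -0.45 ± 0.04 (adjusted p = 2.19e-08, edgeR). After oxamate the log2 difference of CRELD2 was -0.56 ± 0.04. Vehicle- and oxamate-treated oxamate-resistant libraries overlapped for CRELD2, and for PDIA4 they did not.

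DNAJB9 (ERdj4), a J-domain partner of HSPA5 that also returns IRE1 to its inactive state, had 48.3, 50.5 and 49.7 CPM in vehicle-treated parental cells and 22.1, 22.5 and 21.8 CPM in vehicle-treated oxamate-resistant cells. After oxamate DNAJB9 had 63.9, 66.5 and 63.2 CPM in parental cells and 16.3, 17.1 and 16.9 CPM in oxamate-resistant cells. The groups of DNAJB9 lay apart at every step, and its log2 fold changes were -1.16 ± 0.03 after vehicle (adjusted p = 4.83e-14, edgeR) and -1.94 ± 0.03 after oxamate (adjusted p = 1.16e-16), the latter the largest difference of any of the 10 genes in either setting. Of all genes tested, 0.398% had a lower log2 fold change than DNAJB9 after oxamate.

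SDF2L1, a component of the HSPA5 chaperone complex that keeps its client proteins from aggregating, had 34.1, 31.6 and 29.6 CPM in vehicle-treated parental cells and 12.7, 12.9 and 11.8 CPM in vehicle-treated oxamate-resistant cells. It had 38.5, 36.0 and 39.5 CPM in oxamate-treated parental cells and 11.6, 12.8 and 12.8 CPM in oxamate-treated oxamate-resistant cells. The oxamate-resistant groups of SDF2L1 overlapped each other and lay well below both parental groups, with log2 fold changes of -1.35 ± 0.06 after vehicle (adjusted p = 6.69e-12, edgeR) and -1.62 ± 0.06 after oxamate (adjusted p = 4.43e-13). DNAJC3 (p58IPK), a J-domain partner of HSPA5 that also restrains PERK, had 36.5, 40.2 and 41.1 CPM in vehicle-treated parental cells, 33.4, 33.1 and 30.9 CPM in oxamate-treated parental cells, 31.8, 31.7 and 32.4 CPM in vehicle-treated oxamate-resistant cells and 29.4, 30.6 and 29.9 CPM in oxamate-treated oxamate-resistant cells. Vehicle-treated parental cells thus stood above the rest for DNAJC3, and oxamate-treated parental and vehicle-treated oxamate-resistant cells overlapped. The log2 fold change of DNAJC3 between the lines was -0.29 ± 0.04 after vehicle (adjusted p = 1.22e-05, edgeR) and -0.11 ± 0.04 after oxamate (adjusted p = 0.0287). The call after oxamate was lost without any 1 of 4 libraries (the first or the second oxamate-treated parental library, or the first or the third oxamate-treated oxamate-resistant one), with adjusted p between 0.0676 and 0.108. It was also lost with a mean count of at least 25 (adjusted p = 0.0712, edgeR) and with only the 6 libraries compared (adjusted p = 0.0618, edgeR).

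HERPUD1, a membrane protein that brings the machinery of ER-associated degradation together, ran from 109 to 112 CPM in vehicle-treated parental libraries and from 72.5 to 73.2 CPM in vehicle-treated oxamate-resistant ones. After oxamate it ran from 115 to 119.7 CPM and from 67.2 to 68.0 CPM. The lines lay well apart, with log2 fold changes of -0.60 ± 0.02 (adjusted p = 4.52e-12, edgeR) and -0.78 ± 0.03 (adjusted p = 1.13e-13). XBP1 itself differed least after vehicle: it had 127, 126 and 127 CPM in vehicle-treated parental cells and 108, 108 and 109 CPM in vehicle-treated oxamate-resistant cells, a log2 fold change of -0.23 ± 0.03 (adjusted p = 7.83e-07, edgeR). After oxamate XBP1 had 109, 104 and 103 CPM in parental cells and 97.8, 97.4 and 94.0 CPM in oxamate-resistant cells, a log2 fold change of -0.13 ± 0.03 (adjusted p = 3.80e-04). Counts per gene join the spliced and the unspliced XBP1 mRNA, so these values do not give the active form.

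**Figure D3:**
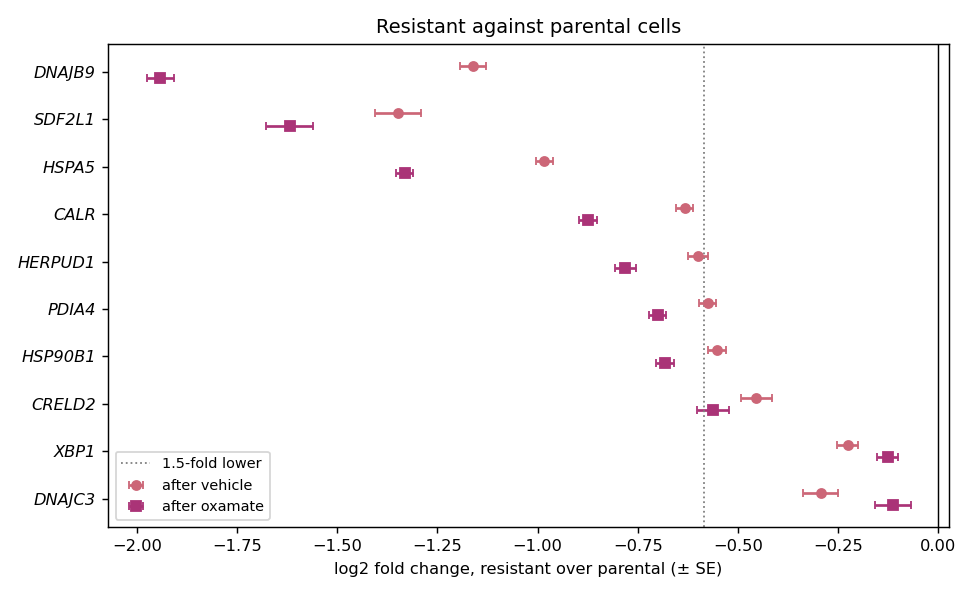
Log2 fold change of each mRNA, oxamate-resistant over parental cells, after vehicle (circles) and after oxamate (squares), with bars of 1 SE; the dotted line marks a level 1.5-fold lower. All points lie below 0 under TMM scaling (with library size alone, XBP1 and DNAJC3 after oxamate lie above 0), and DNAJB9 after oxamate is the lowest at -1.94.

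Oxamate against vehicle was compared within each line to ask how cells respond to LDHA inhibition before and after resistance. In parental cells oxamate raised DNAJB9, SDF2L1, CALR and HSPA5 by factors of 1.30, 1.19, 1.15 and 1.10, and lowered DNAJC3 and XBP1 to 0.827 and 0.830 of the vehicle level. In oxamate-resistant cells no member rose, DNAJB9 fell to 0.759 and HSPA5 to 0.864 of the vehicle level, and XBP1 fell to 0.889. HSPA5, DNAJB9, HERPUD1 and PDIA4 went up in parental and down in oxamate-resistant cells, and XBP1 was downregulated in both. All of these changes were smaller than 1.5-fold, so that none of the 10 genes passed the threshold of the study in either line. Of all genes, 5.69% passed it upward and 4.19% downward in parental cells, and 2.23% and 0.274% in oxamate-resistant cells.

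In parental cells 6 of the 10 genes passed an adjusted p under 0.05 upward, where 28.3% of all genes did, and 2 of the 10 downward, where 30.4% did. In oxamate-resistant cells 0 passed upward, where 9.01% of all genes did, and 6 passed downward, where 12.5% did. All 10 log2 fold changes in oxamate-resistant cells were negative in edgeR, DESeq2 and limma-voom, so that the upward count was 0 at an unadjusted p under 0.05 as well. The median log2 fold change of the 10 genes was 0.07 in parental and -0.10 in oxamate-resistant cells, and all genes tested had medians of 0.003 and 0.00 in them. The opposite calls, a rise in the parental line and a fall in the resistant one, applied to 457 of the 14582 genes (3.13%) and to 4 of the 10, and a fall in both lines applied to 5.62% of all genes and to 1 of the 10. Among the 4, PDIA4 lost its rise with RLE factors, with no filter on low counts and with only the 6 libraries compared (adjusted p between 0.0594 and 0.121, edgeR). It lost its fall with upper-quartile factors, library size alone, no filter and a mean count of at least 25 (adjusted p between 0.0539 and 0.148, edgeR). Both calls also depended on single libraries, as given below. With library size alone, HSP90B1, HERPUD1, PDIA4 and CRELD2 changed sign in parental cells, with log2 fold changes between -0.04 and 0.00, and 4 of the 10 genes (HSPA5, DNAJB9, SDF2L1 and CALR) still passed upward. HSP90B1 was then called lower (-0.043, adjusted p = 0.0418, edgeR), so that 3 of the 10 passed downward. Without both libraries left out for MALAT1, 6 of the 10 passed upward and 2 downward in parental cells (median 0.08). In oxamate-resistant cells 6 then passed downward (median -0.10). Each of the 10 genes kept its direction and its side of the threshold in both lines.

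The rise of DNAJB9 in parental cells was the largest, from 49.5 ± 1.11 to 64.6 ± 1.73 CPM (SD, n = 3), a log2 fold change of 0.38 ± 0.03 (adjusted p = 2.71e-08, edgeR). Its fall in oxamate-resistant cells, from 22.1 ± 0.376 to 16.8 ± 0.387 CPM, gave -0.40 ± 0.04 (adjusted p = 2.73e-06) and ranked 67th of all genes by p. HSPA5 rose in parental cells from 1638 ± 11.3 to 1803 ± 9.81 CPM, with a log2 fold change of 0.14 ± 0.02 (adjusted p = 4.06e-05). It fell in oxamate-resistant cells from 829 ± 16.9 to 716 ± 4.52 CPM, with -0.21 ± 0.02 (adjusted p = 8.23e-06). For both genes the vehicle- and oxamate-treated libraries lay apart in each line, as they did for 29.6% of all genes upward in parental cells and for 22.4% downward in oxamate-resistant cells.

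CALR rose in parental cells by 0.20 ± 0.02 on the log2 scale (adjusted p = 1.32e-06, edgeR) and SDF2L1 by 0.26 ± 0.05 (adjusted p = 5.06e-04). In oxamate-resistant cells their log2 differences of -0.05 ± 0.02 (adjusted p = 0.153) and -0.02 ± 0.06 (adjusted p = 0.888) did not pass. HERPUD1 gave 0.07 ± 0.02 (adjusted p = 0.0141) in parental and -0.11 ± 0.03 (adjusted p = 0.00917) in oxamate-resistant cells, and PDIA4 gave 0.06 ± 0.02 (adjusted p = 0.0271) and -0.07 ± 0.02 (adjusted p = 0.0359). Small changes such as these depended on single libraries. The rise of HERPUD1 was lost without the second vehicle-treated parental library (adjusted p = 0.0591) or the first oxamate-treated parental one (adjusted p = 0.0785). That of PDIA4 was lost without the second or the third vehicle-treated or the first or the second oxamate-treated parental library, with adjusted p between 0.0559 and 0.0800. The fall of PDIA4 in oxamate-resistant cells was lost without the first or second vehicle-treated library, any 1 of the 3 oxamate-treated ones or the second vehicle-treated parental one, with adjusted p between 0.0508 and 0.124.

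XBP1 fell with oxamate in both lines, by 0.27 on the log2 scale in parental cells (SE 0.03, adjusted p = 2.82e-07, edgeR) and by 0.17 in oxamate-resistant cells (SE 0.03, adjusted p = 4.67e-04). DNAJC3 fell in parental cells by 0.27 (SE 0.04, adjusted p = 4.81e-05), and its difference of -0.09 ± 0.04 in oxamate-resistant cells did not pass (adjusted p = 0.150). The transcription factor and this regulator of PERK therefore moved against HSPA5 and DNAJB9 in parental cells. HSP90B1 did not pass in parental cells (0.03 ± 0.02, adjusted p = 0.242, edgeR), where its vehicle- and oxamate-treated libraries overlapped, and fell in oxamate-resistant cells by 0.10 (SE 0.02, adjusted p = 0.00826). CRELD2 passed in neither line, with log2 differences of 0.07 ± 0.04 (adjusted p = 0.123) and -0.04 ± 0.04 (adjusted p = 0.509).

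**Figure D4:**
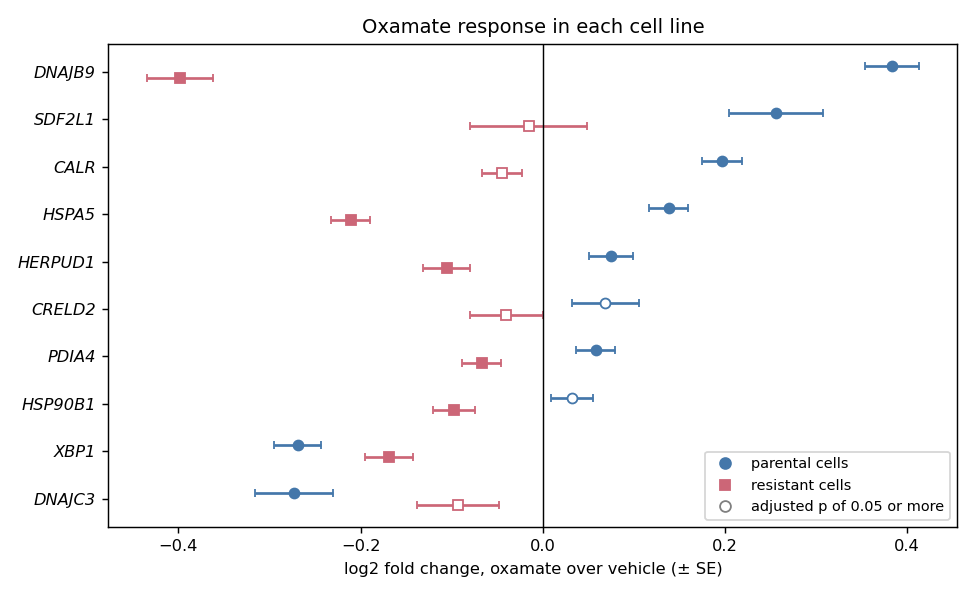
Log2 fold change of each mRNA, oxamate over vehicle, in parental cells (circles) and oxamate-resistant cells (squares), with bars of 1 SE; open symbols have an adjusted p of 0.05 or more. DNAJB9 lies at 0.38 in parental and at -0.40 in oxamate-resistant cells, and XBP1 lies below 0 in both; with library size alone, HSP90B1, HERPUD1, PDIA4 and CRELD2 in parental cells lie at or below 0.

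The difference between the responses of the lines was tested directly. In 7 of the 10 genes the response of oxamate-resistant cells was lower than that of parental cells, against 21.4% of all genes, and in 2 of the 10 it was higher, against 22.7%. DNAJB9 differed most, by -0.78 ± 0.05 on the log2 scale (n = 3 in each of 4 groups; adjusted p = 7.76e-09, edgeR), and ranked 59th of all genes by p. It was the 1 gene of the 10 past 1.5-fold, as were 2.94% of all genes in this direction. HSPA5 followed with -0.35 ± 0.03 (adjusted p = 2.72e-07), then SDF2L1 with -0.27 ± 0.08 (adjusted p = 0.0141) and CALR with -0.24 ± 0.03 (adjusted p = 1.30e-05). HERPUD1, HSP90B1 and PDIA4 differed by between -0.18 and -0.12, and CRELD2 by -0.11 ± 0.05 without passing (adjusted p = 0.122). DNAJC3 and XBP1 differed the other way, by 0.18 ± 0.06 (adjusted p = 0.0271) and 0.10 ± 0.04 (adjusted p = 0.0376). These upward calls were fragile: that of XBP1 stayed only when the left-out library was the first oxamate-treated parental or the third oxamate-treated oxamate-resistant one, and that of DNAJC3 was lost without the second or the third vehicle-treated parental, the third oxamate-treated parental, the first or second vehicle-treated oxamate-resistant or the second oxamate-treated oxamate-resistant library. Without both libraries left out for MALAT1, neither passed (adjusted p = 0.0642 for DNAJC3 and 0.0972 for XBP1, edgeR) and 7 passed downward. With the replicate number as a block within the oxamate-resistant libraries, XBP1 did not pass (adjusted p = 0.0511), which left 1 upward call, that of DNAJC3 (adjusted p = 0.0403). With library size alone only HSPA5, DNAJB9 and CALR passed downward, and DNAJC3 and XBP1 passed upward.

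Under TMM scaling, the group means of 8 of the 10 genes had the same order from low to high. It ran from oxamate-treated to vehicle-treated oxamate-resistant cells and then from vehicle-treated to oxamate-treated parental cells. XBP1 and DNAJC3 were the exceptions, with vehicle-treated parental cells highest. The share of all genes with this order was not counted. With library size alone, the oxamate response of HSP90B1, HERPUD1, PDIA4 and CRELD2 in parental cells and of SDF2L1 in oxamate-resistant cells changed sign. By these signs, only HSPA5, DNAJB9 and CALR then kept the order. Neighbours in the order that overlapped were the parental groups for HSP90B1, the oxamate-resistant groups for SDF2L1 and CRELD2, and oxamate-treated parental with vehicle-treated oxamate-resistant cells for XBP1 and DNAJC3. Across the 12 libraries the log2 CPM of HERPUD1 and HSPA5 had a Pearson r of 0.999 and that of CALR and XBP1 an r of 0.498, the highest and the lowest of all pairs among the 10 genes, and the median over pairs was 0.985. The points share 4 group means, so these r values describe mainly how alike the genes differ between groups. Outside the 10 genes, UHRF2, CDCA7, ARSK, SDHB and STIP1 had the patterns most like their mean (r between 0.998 and 0.999 over 12 libraries), and GADD45B, GRB7 and INSIG1 the most like that of HSPA5 (r between 0.998 and 1.00).

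Of the 3 sensors upstream of these genes, EIF2AK3 passed between the lines after vehicle and all 3 fell with oxamate in parental cells. ERN1 (IRE1) had 6.22 ± 0.352 CPM (SD, n = 3) in vehicle-treated parental cells and 5.75 ± 0.332 CPM in vehicle-treated oxamate-resistant cells (log2 difference -0.12 ± 0.06, adjusted p = 0.109, edgeR), and fell with oxamate in parental cells by 0.32 (SE 0.07, adjusted p = 4.97e-04). ATF6 had 75.1 ± 3.07 and 73.2 ± 1.01 CPM in these vehicle groups (log2 difference -0.04 ± 0.03, adjusted p = 0.314), and fell with oxamate in parental cells by 0.13 (adjusted p = 0.00248). The differences of ERN1 and ATF6 after vehicle turned to 0.10 and 0.18 when scaled by library size alone. EIF2AK3 (PERK) was lower in oxamate-resistant cells after vehicle, by -0.19 ± 0.04 on the log2 scale (adjusted p = 3.61e-04), with the sign turned to 0.03 by library size alone. It fell with oxamate in parental cells by 0.23 (adjusted p = 1.28e-04), and its log2 difference between the lines after oxamate was 0.00 ± 0.04 (adjusted p = 0.942). The factors below PERK parted from each other. ATF4 was higher in oxamate-resistant cells, by 0.40 ± 0.03 after vehicle (adjusted p = 4.04e-09) and by 0.59 ± 0.03 after oxamate (adjusted p = 1.86e-11), whereas DDIT3 (CHOP) was lower, by -1.02 ± 0.05 (adjusted p = 7.54e-11) and -1.20 ± 0.05 (adjusted p = 6.66e-12).

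Of 15 stress sensors and transducers tested, 2 were higher and 9 lower in oxamate-resistant cells after vehicle, and 2 higher and 8 lower after oxamate. Of all genes tested, 38.4% were higher and 37.3% lower after vehicle, and 40.6% higher and 39.7% lower after oxamate. With library size alone the balance of the 15 turned, to 7 higher and 5 lower after vehicle (median 0.09) and 8 higher and 5 lower after oxamate (median 0.20), where the median gene stood at 0.24 and 0.34. CREB3L1, an ATF6-related factor of collagen-making cells, was lower by -0.54 ± 0.03 after vehicle (adjusted p = 2.74e-11) and fell with oxamate in oxamate-resistant cells by 0.26 (adjusted p = 9.80e-06). In parental cells ATF6B rose with oxamate by 0.23 (adjusted p = 6.85e-07) and ATF4 fell by 0.28 (adjusted p = 7.40e-07). All lists of this and the following paragraphs were read as counts and medians, with no test of the list. The shares of all genes just given hold for each list where the lines are compared. Without both libraries left out for MALAT1, the 5 lists had the same numbers of higher and lower calls after vehicle. After oxamate no number moved by more than 1 gene.

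The wider folding machinery of the ER was lower in oxamate-resistant cells by less than the 10 genes. Of 29 ER folding partners tested, 21 were lower and 4 higher after vehicle (median log2 fold change -0.29), and again 21 lower and 4 higher after oxamate (median -0.43). HYOU1, the large Hsp70 that acts as an exchange factor of HSPA5, was lower by -0.55 ± 0.02 after vehicle (adjusted p = 1.65e-12, edgeR), whereas CRELD1, the relative of CRELD2, was higher by 0.45 ± 0.04 (adjusted p = 1.71e-07). ERO1A, the oxidase that passes oxidizing power to disulfide isomerases, was lower by -1.09 ± 0.03 after oxamate (adjusted p = 2.87e-15), and TXNDC11 was higher by 0.49 ± 0.05 (adjusted p = 9.16e-08). In parental cells oxamate changed 15 of these 29 upward and 6 downward, where 28.3% and 30.4% of all genes changed so, and with library size alone 10 upward and 10 downward (median 0.02). The leading genes were ERO1A at 0.63 ± 0.02 and MANF, a secreted ER stress protein, at -0.43 ± 0.04. In oxamate-resistant cells 2 rose, ERO1A among them at 0.18 ± 0.03, and 8 fell, HYOU1 among them at -0.14 ± 0.02, where 9.01% of all genes rose and 12.5% fell. Without both libraries left out for MALAT1, 3 rose and 12 fell.

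With TMM factors, genes of translocation into the ER and of vesicle transport out of it gave the most one-sided of the 5 lists. Of 35 tested, 31 were lower and 1 higher in oxamate-resistant cells after vehicle (median -0.32), and 31 lower and 2 higher after oxamate (median -0.42). SEC24D, a cargo receptor of the COPII coat, had 44.1 ± 0.697 CPM (SD, n = 3) in vehicle-treated parental and 23.1 ± 0.342 CPM in vehicle-treated oxamate-resistant cells, a log2 difference of -0.93 ± 0.03 (adjusted p = 6.61e-13, edgeR), and differed by -1.14 ± 0.03 after oxamate. The single gene higher after vehicle was SEC62 at 0.06 ± 0.02 (adjusted p = 0.0301), and SPCS3, a signal peptidase subunit, was higher after oxamate at 0.35 ± 0.04. With oxamate, 12 of the 35 rose and 8 fell in parental cells, led by SEC61G at 0.47 ± 0.04 and SPCS3 at -0.33 ± 0.04, and 0 rose and 9 fell in oxamate-resistant cells, led by SRPRB at -0.21 ± 0.03. The shares of all genes were 28.3% up and 30.4% down in parental cells, and 9.01% up and 12.5% down in oxamate-resistant cells. The balance in parental cells turned with library size alone, to 5 higher and 15 lower (median -0.05). It was 16 higher and 7 lower without both libraries left out for MALAT1. With library size alone, fewer of both lists were lower in oxamate-resistant cells after vehicle: 14 lower and 8 higher of the 29 folding partners, and 20 lower and 6 higher of these 35, with medians of -0.07 and -0.11 against 0.24 for all genes. After oxamate, this scaling gave 16 lower and 9 higher of the 29, and 18 lower and 11 higher of the 35. The medians were then -0.11 and -0.10, against 0.34 for all genes.

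ER-associated degradation, which pulls misfolded proteins out of the ER for destruction, was called in both directions. Of 23 genes tested, 12 were lower and 7 higher in oxamate-resistant cells after vehicle (median -0.09), and 9 lower and 11 higher after oxamate (median 0.08). EDEM1, a lectin that selects misfolded glycoproteins and a known XBP1 target, was higher by 0.79 ± 0.04 after vehicle (adjusted p = 1.59e-11, edgeR), and UFD1 (listed as UFD1L) was lower by -0.53 ± 0.03. FAF2 was higher by 1.02 ± 0.03 after oxamate (adjusted p = 2.66e-14), where AUP1 was lower by -0.49 ± 0.02. These numbers were nearer to the shares of all genes than those of the folding and transport lists. With library size alone 14 were higher and 3 lower after vehicle, and 15 higher and 7 lower after oxamate. In parental cells oxamate lowered 11 and raised 5 of the 23, led by EDEM3 at -0.82 ± 0.04 and OS9 at 0.26 ± 0.02. In oxamate-resistant cells 4 fell, EDEM3 among them at -0.27 ± 0.04, and 4 rose, UBE2G2 among them at 0.18 ± 0.03. Beside these counts, 28.3% of all genes rose and 30.4% fell in parental cells, and 9.01% rose and 12.5% fell in oxamate-resistant cells. With library size alone the 23 had 3 higher and 13 lower in parental cells, and 5 higher and 4 lower in oxamate-resistant cells.

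Known targets of the PERK and ATF4 arm divided in both directions. Of 15 tested, 7 were higher and 4 lower in oxamate-resistant cells after vehicle (median 0.03), and 6 higher and 9 lower after oxamate (median -0.36). Scaled by library size alone, 11 were higher and 2 lower after vehicle (median 0.25), and 7 higher and 6 lower after oxamate (median -0.04). CHAC1, which degrades glutathione, was higher by 2.20 ± 0.06 after vehicle (adjusted p = 2.23e-14, edgeR) and by 3.57 ± 0.07 after oxamate, and PPP1R15A, the subunit that brings phosphatase to eIF2α, was lower by -0.68 ± 0.03 and -1.22 ± 0.03. Oxamate lowered ASNS, which makes asparagine, in both lines, with log2 fold changes of -0.58 ± 0.03 in parental (adjusted p = 1.76e-10) and -0.66 ± 0.03 in oxamate-resistant cells (adjusted p = 4.79e-10). In parental cells 6 of the 15 rose and 9 fell with oxamate, where 28.3% of all genes rose and 30.4% fell. In oxamate-resistant cells 1 rose and 9 fell, where 9.01% of all genes rose and 12.5% fell.

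**Figure D5:**
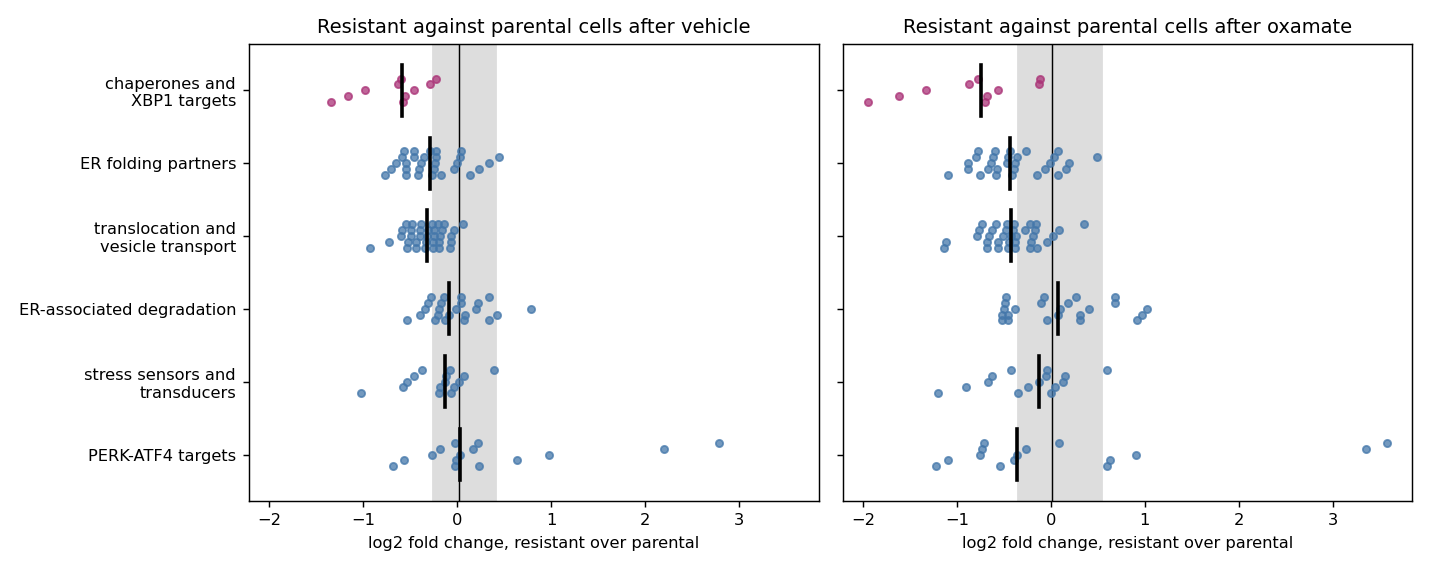
Log2 fold change, oxamate-resistant over parental cells, of every tested gene on each list after vehicle (left) and after oxamate (right), TMM-scaled; points are genes, thick bars the list medians, the thin vertical line the median and the grey band the middle 50% of all 14582 genes. The 10 chaperones and XBP1 targets have medians of -0.59 and -0.74, and the list of ER-associated degradation has medians of -0.09 and 0.08; with library size alone, XBP1 and DNAJC3 after oxamate lie above 0.

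Other genes with an ERSE or ERSE-II in their promoter window did not all follow the 7 members that hold one. Outside the 10 genes, 37 gene symbols had such an element and 25 of them were tested, of which 13 were lower and 5 higher in oxamate-resistant cells after vehicle (median log2 fold change -0.12). After oxamate 15 were lower and 8 higher (median -0.34). Of all genes, 37.3% were lower and 38.4% higher after vehicle, and 39.7% lower and 40.6% higher after oxamate. Under library size alone, 9 of the 25 were lower and 11 higher after vehicle (median 0.10), and 10 lower and 11 higher after oxamate (median -0.01). The ER folding genes among them included HYOU1 with an ERSE-II, given above, and PDIA6 and CANX with an ERSE, whose log2 fold changes after vehicle were -0.56 and -0.23. ERO1B, which also holds an ERSE, was higher by 0.24 ± 0.04. ALG12, which lies head to head with CRELD2 and shares its ERSE, was higher by 0.18 ± 0.04 after vehicle (adjusted p = 0.00104, edgeR), where CRELD2 was lower by -0.45 ± 0.04. PDIA6, CANX, ERO1B and ALG12 were chosen after their values were seen. Among the 10 genes after vehicle, SDF2L1, with an ERSE-II, had the largest difference between the lines at -1.35. Next came DNAJB9, with neither element, at -1.16 and HSPA5, with an ERSE, at -0.98. XBP1, with an ERSE, had the smallest at -0.23, and DNAJC3, with neither element, stood next to it at -0.29. A relation between the elements and the differences was not tested.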

How the data were processed

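Poly(A) RNA was selected by the authors on oligo(dT) beads, and whether libraries or counts kept the strand is not given in the sources used here. The submitters' processing notes name Bowtie2 2.1.0, RSEM 1.2.15 and build hg38, and the deposited values are RSEM expected counts per gene, not normalized; the study's methods also describe STAR and featureCounts, but 11.6% of the deposited values are not whole numbers, as RSEM gives them. RSEM divides reads that match several genes. Of the 120 values of the 10 genes, 7 were not whole.

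Expected counts were rounded to whole numbers. Tests used edgeR 4.0.16 under R 4.3.3 (filterByExpr, TMM, glmQLFit and glmQLFTest) in 1 fit of the 4 group means over all 12 libraries, and adjusted by Benjamini and Hochberg over 14582 genes. A call is an adjusted p under 0.05. No list was tested as a set. Gene lengths came from GENCODE release 29 and promoter windows from RefSeq. Intervals were not needed at these counts, and the floor of 3 counts covers counting error only. The checks of replicate pairs found no identical libraries. In deviations from the group means, same-numbered vehicle- and oxamate-treated oxamate-resistant libraries correlated at 0.112, 0.223 and 0.440, all over 0.1. Other-numbered ones reached 0.173. The numbers were used as pairs only in the alternative fits with a replicate block. That pairing comes from the data and not from the labels. All other p-values are from fits without pairs. In no other pair of groups did all 3 correlations pass 0.1.

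The genes named were the 10 members, ERN1, EIF2AK3, ATF6, ATF4 and DDIT3, in each comparison and list the called gene with the smallest p in each direction, and the genes with the most similar pattern. The members and lists were chosen with earlier results of these data known. Alternatives were other scalings, filters, thresholds and tools (DESeq2 1.42.0, limma-voom from limma 3.58.1), a replicate block over all libraries, leaving out libraries and, chosen after seeing the data, a replicate block within the oxamate-resistant libraries. The dose and duration of oxamate before RNA extraction are not given in the sources used here.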

Additional observations from a re-analysis of the deposited data

Results flagged for a closer look

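The response to oxamate differed between parental and oxamate-resistant cells, by the test of the difference itself (edgeR, n = 3 libraries in each of 4 groups), for 9 of the 10 genes. By the same test, 21.4% of all genes passed downward and 22.7% upward. With library size alone, 3 of the 10 passed downward and 2 upward. The upward calls of DNAJC3 and XBP1 were lost without several single libraries, as given above. The differences, as the log2 response of oxamate-resistant cells minus that of parental cells, were -0.78 for DNAJB9, -0.35 for HSPA5, -0.27 for SDF2L1, -0.24 for CALR, -0.18 for HERPUD1, -0.13 for HSP90B1 and -0.12 for PDIA4, and 0.18 for DNAJC3 and 0.10 for XBP1. Among the sensors and factors the differences were 0.24 for ERN1 (adjusted p = 0.0464), 0.20 for EIF2AK3 (adjusted p = 0.0111), 0.20 for ATF4 (adjusted p = 0.00108) and -0.36 for CREB3L1 (adjusted p = 1.40e-06). In the other lists the genes with the smallest p in each direction were TXNDC5 at 0.48 and FKBP10 at -0.43 for folding, FAF2 at 0.69 and OS9 at -0.28 for degradation, SPCS3 at 0.38 and KDELR1 at -0.32 for translocation and transport, and CHAC1 at 1.37 and DDIT4 at -0.69 for targets of PERK and ATF4.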

How the results depend on the processing

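The 10 genes were recomputed 1160 times under settings other than the call thresholds, and 1094 of these values kept their direction and their side of the threshold, 55 lost the call, 1 gained it and 10 changed sign. Size factors by library size alone turned the median of the 10 genes in parental cells to -0.0029 and, for the oxamate response there, HSP90B1 to -0.043, HERPUD1 to -5.95e-05, PDIA4 to -0.017 and CRELD2 to -0.0056; they turned SDF2L1 in oxamate-resistant cells to 0.015 and, between the lines after oxamate, DNAJC3 to 0.21 and XBP1 to 0.20, so that 2 genes were called higher there, and left 3 lower calls in the difference between responses. In parental cells HSP90B1 gained a lower call with library size alone (adjusted p = 0.0418, edgeR). After vehicle, DNAJC3 (-0.07, adjusted p = 0.124) and XBP1 (-0.01, adjusted p = 0.797) lost their calls under it. Over all genes it moved the calls between the lines after vehicle from 5602 higher and 5436 lower to 8540 and 2769, after oxamate from 5923 and 5785 to 9133 and 2819, in parental cells from 4124 and 4439 to 2853 and 5922, and in oxamate-resistant cells from 1314 and 1825 to 1753 and 1179. Upper-quartile factors turned SDF2L1 in oxamate-resistant cells to 0.0080, and DNAJC3 and XBP1 lost their calls between the lines after oxamate (adjusted p = 0.587 and 0.167). The higher calls in the difference between responses, 2 of 10, were 1 with RLE factors, with no filter and in DESeq2, and 0 at an adjusted p under 0.01 and without the third oxamate-treated parental and the third vehicle-treated oxamate-resistant libraries together. With a 1.5-fold minimum, at an unadjusted or an adjusted p, the calls were 0 higher and 0 lower in parental cells, 0 lower in oxamate-resistant cells, 5 lower between the lines after vehicle, and 0 higher and 1 lower in the difference between responses. Leaving out each library in turn gave 4 to 6 higher calls in parental cells, 5 to 6 lower in oxamate-resistant cells, 9 to 10 lower between the lines after oxamate, and 0 to 2 higher and 7 to 8 lower in the difference between responses, and moved SDF2L1 in oxamate-resistant cells between -0.054 and 0.028. The causes were not tested. Same-numbered libraries of the oxamate-resistant line correlated at between 0.112 and 0.440, and other-numbered ones at between -0.346 and 0.173. In the parental line the same-numbered values ran from -0.28 to 0.25. Across lines, no pair of groups had all its same-numbered values over 0.1. A replicate block over all libraries left 6 higher and 2 lower calls in parental cells, 6 lower in oxamate-resistant cells, 10 lower in both comparisons of the lines, and 2 higher and 7 lower in the difference between responses. A block within the oxamate-resistant libraries, chosen after seeing the data, gave 6 lower calls there and 1 higher and 7 lower in the difference, where XBP1 lost its call (adjusted p = 0.0511); neither block changed any other call.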
